A study of Mus musculus with 24 samples.

Results

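Barcodes rich in the keratins Krt5 and Krt14 formed a small population among the cells of Panc02 tumors. They were taken as barcodes with at least 1000 UMIs, under 10% mitochondrial UMIs, at least 2 UMIs each of Krt5 and Krt14, and 0 UMIs of Ptprc, which encodes the pan-leukocyte protein CD45, with no upper limit on UMIs. By this rule 259 of 120912 barcodes past the depth and mitochondrial limits were members (0.214%), out of 144994 barcodes in all. They are called Krt5 Krt14 keratinocytes here. Members were chosen by their measured UMIs of Krt5, Krt14, and Ptprc, so that the levels of these genes are a description only.

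Keratinocytes of the basal layer of the epidermis and of the outer root sheath of hair follicles assemble their filaments from keratin 5 and keratin 14, and the transcription factor p63 (Trp63) maintains them. They rest on the basement membrane through hemidesmosomes. As they leave the basal layer they switch to keratin 1 and keratin 10, and later to the proteins of the granular and cornified layers. On GRCm38, Krt5 lies on chromosome 15 at 101707069 to 101712905, the chromosome of Krt1 at 101845426 to 101850786, and Krt14 lies on chromosome 11 at 100203162 to 100207510, the chromosome of Krt10 at 99385254 to 99397449.

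Panc02 is a murine pancreatic ductal adenocarcinoma line, grown here under the skin of wild-type male C57BL/6 mice aged 6 to 7 weeks, which were harvested on day 38. There were 8 treatments, made by giving or leaving out each of PancVAX, Anti-PD-1, or Anti-CTLA-4. The pool given none of the agents is labelled Isotype Control, and 1 pool was given all 3. PancVAX, a neoantigen peptide vaccine given with AddaVax and a STING agonist, was injected on days 12 and 19, Anti-PD-1 was started on day 12, and Anti-CTLA-4 was given on days 15 and 22. Mice without PancVAX received PBS, so an effect of PancVAX joins that of the peptides and that of the adjuvants. Cells from mice of the same treatment were combined, and each library thus measured pooled cells. Each treatment had 1 library of unselected cells, labelled whole tumor, and 1 made after enrichment on a Percoll density gradient, and the preparations were also the 2 sequencing batches. The sources used here do not say if both libraries of a treatment came from the same mice, and a pool stands below for the libraries of 1 treatment. The 16 libraries held 77132398 to 176233225 UMIs.

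The Percoll library of the PancVAX + Anti-PD-1 pool stood apart from the others. Among its 7525 barcodes with at least 3000 UMIs, 47.6% had another barcode of the same library whose counts matched theirs, that is, differed by no more than a limit set a little above sampling noise. In the other 15 libraries this share ran from 1.32% to 6.66%, and when the search was made against the barcodes of another library it ran from 0.0496% to 2.35%. The cells with Krt8 and Krt18 of that library were affected alike, at 47.6% against 0.625% to 4.25% elsewhere. Of its 153 keratinocytes with at least 3000 UMIs, 110 lay in 15 such groups, the largest with 19 members, and 43 stood alone. Outside this library only 2 keratinocytes matched each other, in the whole-tumor library of the PancVAX + Anti-CTLA-4 pool. Why barcodes matched was not tested. When only the deepest barcode of each group was kept, 158 keratinocytes of 116040 barcodes remained (0.136%). In 5 of the 15 groups the deepest barcode was not itself a keratinocyte by the rule, so that these groups were not counted, and 163 keratinocytes would remain with 1 kept from every group. Keeping only the deepest barcode is called below counting matching barcodes once. Barcodes under 3000 UMIs were not searched and were all kept in this count. Among the 71 keratinocytes it left in that Percoll library, 18 were such barcodes, and some matching barcodes may thus remain. Gene values below are with all barcodes, and those with matching barcodes counted once or without that library are added for some genes whose call they changed.

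Where the members came from was examined first. The PancVAX + Anti-PD-1 pool held 210 of the 259 members (81.1%), and 110 of 158 (69.6%) with matching barcodes counted once. Its whole-tumor library, which had no matching members, held 39 members in 6874 barcodes (0.567%, exact binomial 95% interval 0.404% to 0.775%). Its Percoll library held 171 in 10640 (1.61%, 1.38% to 1.86%), or 71 in 7636 (0.930%) with matching barcodes counted once. The next highest library, Percoll PancVAX + Anti-CTLA-4, held 14 in 6511 (0.215%, 0.118% to 0.361%), and its whole-tumor counterpart held 10 in 9705 (0.103%). The pool with all 3 agents held 4 whole-tumor and 11 Percoll members, the Anti-PD-1 pool 4 and 1, and the Isotype Control pool 2 and 3. No member was found in either library of the PancVAX, Anti-CTLA-4, and Anti-PD-1 + Anti-CTLA-4 pools, where a count of 0 allowed shares of up to 0.0293% to 0.0511% (3 counts of the barcodes of a library). Intervals and limits cover counting error only, and treat barcodes as independent, matching ones included.

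**Figure D1:**
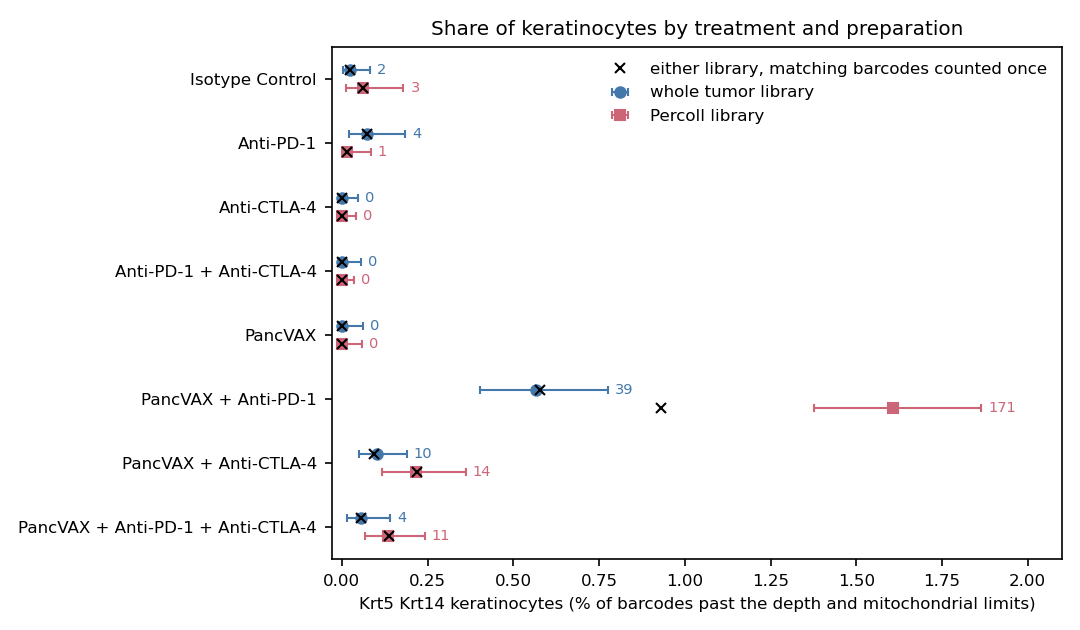
Share of Krt5 Krt14 keratinocytes among barcodes past the limits, in percent, for each treatment and preparation. Circles and squares give whole-tumor and Percoll libraries, bars give exact binomial 95% intervals, numbers give members, and crosses give the share with matching barcodes counted once. Both libraries of the PancVAX + Anti-PD-1 pool lie above all others, at 0.567% and 1.61%, and the cross of the Percoll library lies at 0.930%.

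The share was then compared between the groups of pools. It was 0.103% ± 0.192 (SD, n = 8) in whole-tumor libraries and 0.254% ± 0.552 (n = 8) in Percoll libraries, with the Percoll library higher in 4 pools and lower in 1 (exact sign-flip permutation test with libraries paired by treatment over 8 treatments, two-sided P = 0.188). The difference of whole tumor minus Percoll was -0.152 points, -0.0673 points with matching barcodes counted once, and -0.0249 points without the PancVAX + Anti-PD-1 pool. Over the means of both libraries, pools with PancVAX had 0.335% ± 0.505 (n = 4) and pools without it 0.0214% ± 0.0247 (n = 4), a difference of 0.314 points that did not pass the exact permutation test (P = 0.143, adjusted P = 0.429). Pools with Anti-PD-1 had 0.307% ± 0.522 and pools without it 0.0503% ± 0.0752 (exact permutation P = 0.543, adjusted P = 0.800). Pools with Anti-CTLA-4 had 0.0636% ± 0.0779 and pools without it 0.293% ± 0.530 (exact permutation P = 0.800, adjusted P = 0.800). The smallest P that 4 against 4 pools allow is 0.0286. Within whole-tumor libraries the PancVAX difference was 0.158 points (exact permutation P = 0.257), and within Percoll libraries it was 0.470 points (P = 0.143). The difference for each agent rested on the PancVAX + Anti-PD-1 pool. Without it the PancVAX difference was 0.0634 points and those of Anti-PD-1 and Anti-CTLA-4 turned sign, to -0.00403 and 0.0350. With matching barcodes counted once, the PancVAX difference was 0.230 points (exact permutation P = 0.143). The reverse case was the PancVAX pool, which had no members: without it the PancVAX difference was 0.426 points (exact permutation P = 0.0286, unadjusted).

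The label was checked against Trp63, which the rule did not use. Trp63 was detected in 165 members (63.7%, exact binomial 95% interval 57.5% to 69.6%), at a median depth of 7524 UMIs per member. With matching barcodes counted once it was detected in 120 (75.9%), at a median of 9694.5 UMIs. The latter share lay above the interval, which treats matching barcodes as independent. It was detected in 2.49% of 43460 barcodes with Ptprc (median 5037.5 UMIs) and in 20.003% of 53342 cells with Krt8 and Krt18 (median 20387.5 UMIs). Summed over members, Krt5 reached 7909 CPM (UMIs of a gene scaled to 1000000 UMIs) and Krt14 reached 11405.5 CPM, against 10.8 and 16.5 CPM in barcodes with Ptprc. A UMI of Krt5 was found in 1.498% and 1.793% of barcodes with Ptprc in the PancVAX + Anti-PD-1 pool (whole tumor and Percoll), and in 0% to 0.393% of such barcodes in the other libraries. UMI counts of this 5′ assay are not divided by gene length, and levels are compared between cells and not between genes. At the edge of the rule, 19 members had exactly 2 UMIs of Krt5 or Krt14 (Trp63 in 6), and 32 barcodes without Ptprc had at least 1 UMI of each but too few to be members (Trp63 in 14). Another 37 barcodes met the keratin limits but held Ptprc. Among the groups of matching barcodes, Krt5 ran from 1.77 to 184 UMIs per 10000. Trp63 was not counted apart in members with Krt8 and Krt18, so the label may not hold for each member.

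The members were not all basal in their keratins. Krt1 and Krt10 UMIs, which mark the layer above, came to 3 or more in 107 members, to 0 in 112, and to 1 or 2 in 40, and with matching barcodes counted once to 60, 65, and 33. The label basal therefore describes only some of them. Krt8 and Krt18, keratins of simple epithelia and of the Panc02 cells, were each present with 2 or more UMIs in 82 members (33.3% of those in the Percoll library of the PancVAX + Anti-PD-1 pool and 23.1% of those in its whole-tumor library). These members had a median of 11057 UMIs against 6658 in the rest. In addition, 144 members held 2 or more UMIs of T cell, B cell, myeloid, fibroblast, endothelial, or melanocyte markers together. This was not particular to members. In the PancVAX + Anti-PD-1 pool, 27 of 39 whole-tumor and 60 of 171 Percoll members held fewer. So did only 499 of 2285 and 834 of 3563 cells there with Krt8 and Krt18 but no Krt5, Krt14, or Ptprc. Such cells were deeper, at a median of 20387.5 UMIs over all libraries. The part of 2 cells in 1 droplet in these values was not tested. Members ran from 1007 to 78977 UMIs, 159 met the limits of the study (up to 3000 genes and 10000 UMIs), and no doublet caller was run. Barcode sequences recur between libraries, and 56 members shared theirs with 57 barcodes of other libraries, none of which was a member or held more than 2 UMIs of Krt5 and Krt14 together. None of the 200 members in Percoll libraries had a T cell receptor contig. Of 28264 cells there with Krt8 and Krt18 but no Krt5, Krt14, or Ptprc, 98 had one (0.347%). At such a share, 0 of 200 says little.

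**Figure D2:**
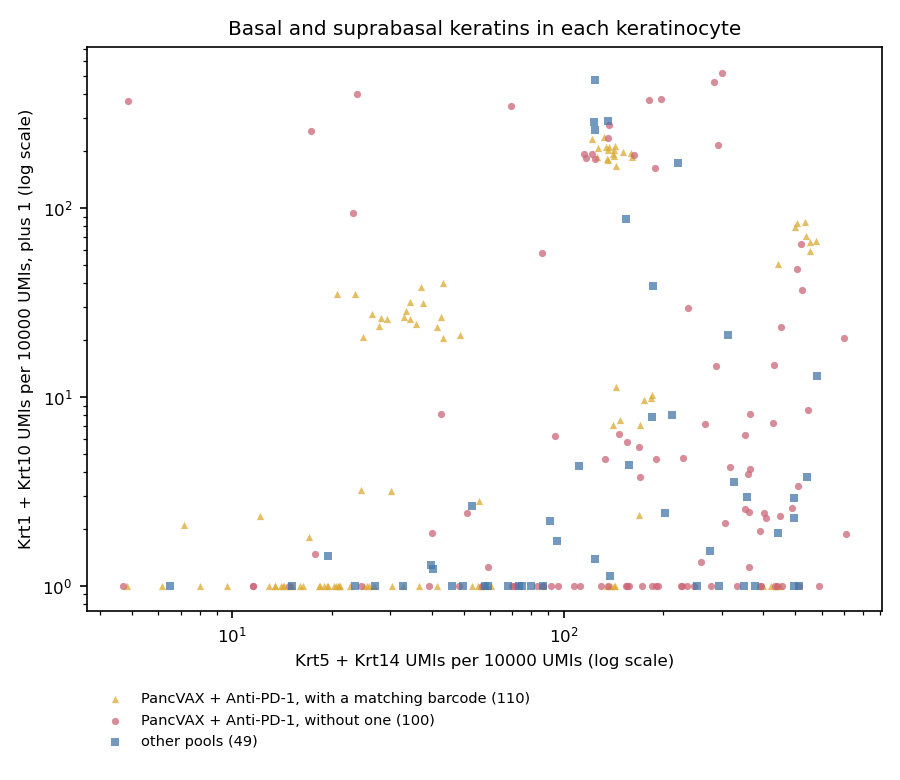
Krt1 plus Krt10 UMIs (plus 1) against Krt5 plus Krt14 UMIs, both per 10000 UMIs on log scales, with 1 point per keratinocyte. Triangles are the 110 members of the PancVAX + Anti-PD-1 pool with a matching barcode, circles the 100 others of that pool, and squares the 49 members of other pools. Most triangles lie in a few clusters or at 0 UMIs of Krt1 and Krt10, drawn at 1, while circles and squares are spread over the plane and along that line.

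The keratinocytes were next compared with another group of cells of these libraries, those with at least 2 UMIs each of Krt8 and Krt18 and none of Krt5, Krt14, and Ptprc. UMIs were summed per library in the 5 libraries with at least 10 members, and the test was the quasi-likelihood test of edgeR with library as a block. These libraries held 245 of the members and come from 3 pools, all with PancVAX. P values measure only the spread between libraries. Libraries of 1 pool may hold cells of the same mice and were counted as separate blocks, so that P values may be too small. Of 12844 genes tested, 1096 (8.53%) were higher and 726 (5.65%) lower in keratinocytes (14.2% in either direction), with an adjusted P under 0.05 and a log2 fold change beyond 1. The median log2 fold change over all genes was -0.09. Without the Percoll library of the PancVAX + Anti-PD-1 pool, 891 (7.04%) were higher and 528 (4.17%) lower. Without both libraries of that pool these were 661 (5.05%) and 261 (1.99%). Percents are of the genes tested in each recount, whose number differed. With matching barcodes counted once, which left 4 of the libraries with at least 10 members, 1242 (9.67%) were higher and 1176 (9.16%) lower. Without the 82 members that held Krt8 and Krt18 themselves, 3 libraries had at least 10 members, and 1573 genes (12.0%) were higher and 2119 (16.1%) lower. The members and the libraries changed together in these 2 recounts, and matching Krt8 Krt18 cells were also counted once in the first. Of 88 called genes that were followed over the alternatives, 58 kept their call in every alternative in which they were tested.

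**Figure D3:**
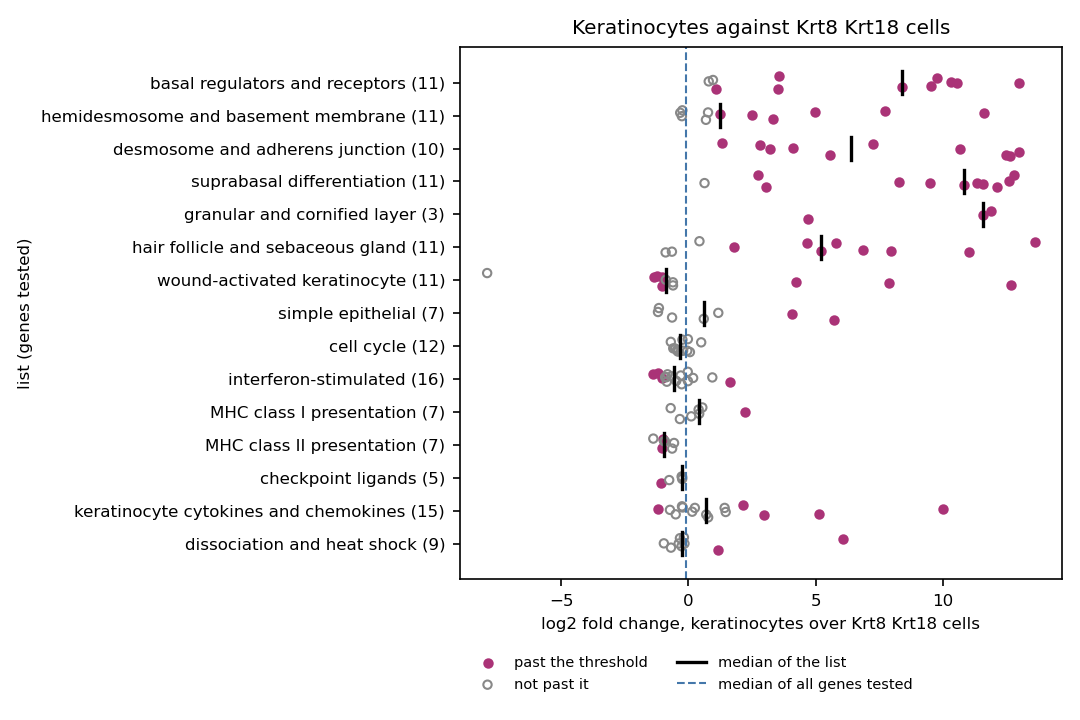
Log2 fold change of keratinocytes over Krt8 Krt18 cells (x axis) for the genes of each list (y axis, number tested in brackets). Filled points passed the threshold, open points did not, black bars give the median of a list, and the dashed line gives the median of all genes, -0.09. The lists of desmosomes and of suprabasal differentiation lie far to the right, and that of hemidesmosomes has a median of 1.23. The cell cycle list lies around the dashed line, with a median of -0.32.

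Regulators and receptors of basal keratinocytes were higher for 9 of 11 genes tested, against 8.53% of all genes, with a list median of 8.40. Trp63 stood at 219.9 CPM in the whole-tumor and 160 CPM in the Percoll library of the PancVAX + Anti-PD-1 pool, at 136 and 281 CPM in the PancVAX + Anti-CTLA-4 pool, and at 127 CPM in the Percoll library with all 3 agents. All 5 values lay above the highest value of Trp63 in Krt8 Krt18 cells, 16.8 CPM. The log2 fold change of Trp63 was 3.56 ± 0.19 (SE, adjusted P = 6.23e-10). Krt15, a keratin of basal and hair follicle stem cells, reached 2352 CPM against 2.27 CPM (log2 10.33 ± 0.31, adjusted P = 1.19e-12). Sfn, the cell cycle regulator stratifin of stratified epithelia, reached 2347 CPM against 6.72 CPM (8.40 ± 0.24). The transcription factor Tfap2c and the p63 target Zfp750 were close to 0 in Krt8 Krt18 cells, at 53.7 against 0.00271 CPM and 34.1 against 0.0407 CPM. The receptors Fgfr2 and Egfr were higher by log2 9.76 and 1.07. Klf5 and Tfap2a, at 0.96 and 0.80, were below the fold threshold. Klf5 passed with matching barcodes counted once (1.13) and without the Percoll library of the PancVAX + Anti-PD-1 pool (1.07), and in 8 of 12 alternatives in all.

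Hemidesmosome and basement membrane genes were higher for 6 of 11, against 8.53% of all genes, with a list median of 1.23. Col17a1, the collagen that ties keratinocytes to the basement membrane, was detected in 212 members (81.9%) and lay between 509.9 and 735 CPM in the 5 libraries, against 0.185 CPM in Krt8 Krt18 cells (log2 11.60 ± 0.23, adjusted P = 1.50e-14). Its integrin partners Itga6 (2.50) and Itgb4 (1.23) were higher, and so were the laminin chains Lama3 (7.73) and Lamb3 (4.96). Itga3, Itgb1, and Cd151, which many cells use, did not pass. Dst and Plec did not pass either, and passed in only 1 and 2 of 12 alternatives.

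Genes of desmosomes and adherens junctions were higher for 10 of 10 tested, against 8.53% of all genes, with a list median of 6.39. Dsp, which links desmosomes to keratin filaments, stood at 1035 and 1161 CPM in the PancVAX + Anti-PD-1 pool (whole tumor and Percoll), and between 832 and 1123 CPM in the other 3 libraries. In Krt8 Krt18 cells Dsp was 0.619 CPM (log2 10.67 ± 0.28). Dsg3, the cadherin that pemphigus antibodies bind, was 111 CPM against 0.00814 CPM (12.99 ± 0.36), and Dsc3 was 304 CPM against 0.0380 CPM. Perp, a desmosomal protein under p63, was detected in 233 members (90.0%) and was higher by 7.24 ± 0.17. Cdh1, which encodes E-cadherin, was higher by 4.09 and Epcam, another epithelial adhesion protein, by 5.71 ± 0.44.

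**Figure D4:**
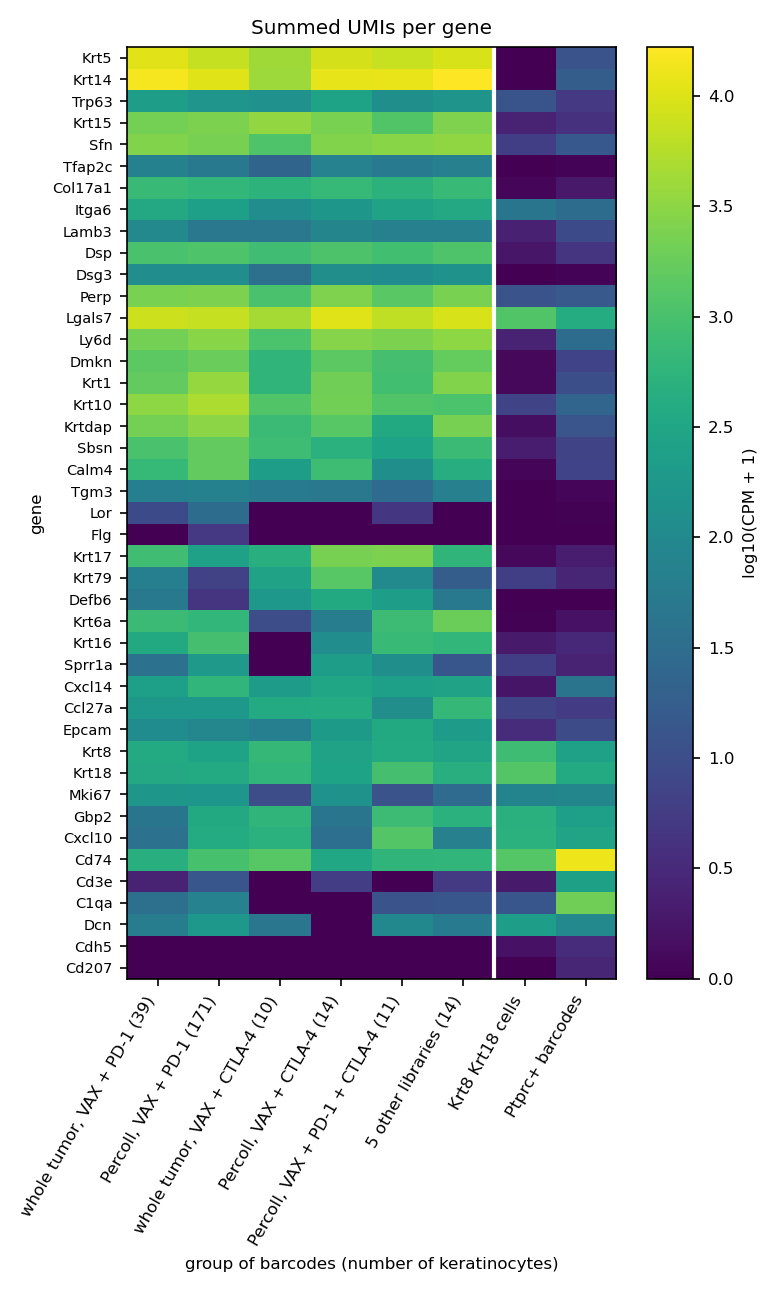
Levels of selected genes as log10 of CPM plus 1, in keratinocytes of the 5 libraries with at least 10 members, in those of the 5 other libraries summed, in Krt8 Krt18 cells, and in barcodes with Ptprc. Numbers in brackets are members, and the agents are shortened to VAX, PD-1, and CTLA-4. Of the adhesion genes, Col17a1 and Dsp hold similar levels in the 5 libraries, and Dsg3 runs from 35.2 to 121 CPM. Krt6a, Krt16, Krt79, Defb6, Cxcl10, and Gbp2 differ between the keratinocyte columns.

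Suprabasal genes were higher for 10 of 11 tested, against 8.53% of all genes, with a list median of 10.81. Krt1 was detected in 106 members (40.9%), at 1616 and 3543 CPM in the PancVAX + Anti-PD-1 pool (whole tumor and Percoll), 572 and 2019 CPM in the PancVAX + Anti-CTLA-4 pool, and 892 CPM with all 3 agents. In the last 3 of these libraries few members carried the value, with 125 of 130 Krt1 UMIs in 1 of 10 members, 392 of 417 in 2 of 14, and 235 of 245 in 1 of 11. The summed CPM of the list ran from 10191 to 27565 over these libraries. Krtdap, a secreted protein of differentiating keratinocytes, was 2408 against 1.35 CPM (log2 12.58 ± 0.91, adjusted P = 2.79e-08), and Ly6d and Dmkn were higher by 11.58 and 12.11. Lgals7, a galectin of stratified epithelia, was detected in 256 members (98.8%) and was higher by 2.75 ± 0.15. Of 12 genes of the granular and cornified layers, 3 were tested, all higher, among them the transglutaminase Tgm3, detected in 66 members. Lor, Flg, and Flg2, which encode loricrin and the filaggrins, were detected in 9, 2, and 3 members, and the whole list summed to 181 CPM.

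Hair follicle and sebaceous gland genes were higher for 8 of 11, against 8.53% of all genes, and differed between libraries. Krt17, a follicle and wound keratin, was 859 and 263 CPM in the PancVAX + Anti-PD-1 pool (whole tumor and Percoll), 462 and 2266 CPM in the PancVAX + Anti-CTLA-4 pool, and 2462 CPM with all 3 agents. Krt79, a keratin of the upper follicle and sebaceous duct, was highest in Percoll PancVAX + Anti-CTLA-4, at 1341 CPM, and between 5.66 and 273 CPM in the others, with UMIs in only 16 members. Defb6, a beta-defensin, was at 373 CPM in the same library and at 3.40 to 233 CPM in the others. Both were above the highest level in Krt8 Krt18 cells in every library, and over the 5 libraries Krt17 was higher by log2 11.02 ± 0.88, Krt79 by 6.85 ± 0.86, and Defb6 by 13.60 ± 0.42. The stem cell genes Lgr5 (5.21) and Lgr6 (4.65) and the matrix gene Postn (5.80) were also higher. Cd34, a marker of bulge cells, passed over 5 libraries (1.80 ± 0.52) but not without the Percoll library of the PancVAX + Anti-PD-1 pool (0.88, adjusted P = 0.434).

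Genes of wound-activated keratinocytes split, with 3 of 11 higher and 4 lower, against 8.53% and 5.65% of all genes. Krt6a, a keratin of wounds and of the follicle, stood at 743 and 613 CPM in the libraries of the PancVAX + Anti-PD-1 pool and 794 CPM with all 3 agents, but at 8.80 and 58.1 CPM in the PancVAX + Anti-CTLA-4 pool. Krt16, its partner, was 360 and 950 CPM, 725 CPM, and 0 and 116 CPM in the same order. Each pool is 1 sample for such a contrast, and it was not tested. Against Krt8 Krt18 cells, Krt6a (12.68 ± 0.44), Krt16 (7.87 ± 0.61), and the cornified envelope precursor Sprr1a (4.22 ± 0.46) were higher. Among the lower genes were Plaur (-1.37), Hbegf (-1.04), and Ereg (-1.03), which act in proteolysis and growth factor signaling. Without the Percoll library of the PancVAX + Anti-PD-1 pool, Hbegf was just under the fold threshold (-0.96, adjusted P = 0.00246), and Hbegf and Ereg each lost their call in 6 of 12 alternatives. Fosl1, a transcription factor of the AP-1 family, was below it at -0.89 and passed with matching barcodes counted once (-1.07). Krt6a and Krt6b, and Krt14, Krt16, and Krt17, are close in sequence, so that reads may be split among them and their levels are uncertain.

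Among keratinocyte cytokines and chemokines, 4 of 15 were higher and 1 lower, against 8.53% and 5.65% of all genes. Cxcl14, a chemokine of resting epithelium, was detected in 131 members (50.6%) at 211 to 591 CPM, against 0.361 CPM in Krt8 Krt18 cells (log2 9.99 ± 0.43, adjusted P = 6.55e-11). Ccl27a, the ligand that draws CCR10+ T cells to skin, was 120 to 402 CPM over the libraries and was higher by 5.11 ± 0.28. Cxcl16 (2.15) and Tgfa (2.97) were also higher, and Csf1, the macrophage growth factor, was lower (-1.21 ± 0.22). 

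In the interferon-stimulated list, 1 of 16 was higher (Psmb8, 1.64) and 3 were lower (Bst2 at -1.39, Irf7 at -1.20, and Irf1 at -1.03), where 14.2% of all genes passed in either direction. Irf1 lost its call in 4 of 12 alternatives and Irf7 in 3. The list varied between libraries, with a summed level of 782 and 1992 CPM in the PancVAX + Anti-PD-1 pool (whole tumor and Percoll), 2416 and 799 CPM in the PancVAX + Anti-CTLA-4 pool, and 4385 CPM with all 3 agents. In these libraries, in the order given, the chemokine Cxcl10 was 37.7 and 399.9 CPM, 488 and 33.9 CPM, and 1235 CPM. In the library with all 3 agents, members with 75406 and 78977 UMIs held most of the 274566 UMIs of its 11 members. The part of single members in these levels was not tested. Of MHC class I genes 6 of 7 did not pass, with H2-K1 at 1109 against 797 CPM (0.40), and their regulator Nlrc5 was higher (2.22 ± 0.40). MHC class II genes were lower for 2 of 7, against 5.65% of all genes. These were H2-DMa (-1.05) and H2-DMb1 (-1.01), which lost their call in 5 and 6 of 12 alternatives. Cd74, the invariant chain of MHC class II, did not pass (-0.96) but did in 7 of 12 alternatives, among them matching barcodes counted once (-1.60) and the recount without the Percoll library of the PancVAX + Anti-PD-1 pool (-1.02). Cd274, which encodes PD-L1, was detected in 14 members, at 88.0 CPM in whole-tumor PancVAX + Anti-CTLA-4 and at 0 to 14.6 CPM in the other 4 libraries. Of the checkpoint ligands only Pvr passed (-1.09), and not without the Percoll library of the PancVAX + Anti-PD-1 pool (-0.95, adjusted P = 0.0820). None of 12 cell cycle genes passed by edgeR, with a list median of -0.32. Of 9 dissociation and heat shock genes, Hspa1a (6.09) and Atf3 (1.18) were higher, against 8.53% of all genes. Atf3 turned to -0.054 (adjusted P = 0.983) under the limits of the study.

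Among genes with at least 20 CPM in the group where they were higher, the largest rises included Fcgbp, a mucus-associated protein, at 376 against 0.0163 CPM (log2 14.20 ± 0.28), the cysteine protease inhibitor Stfa3 (14.04), and Sostdc1, a BMP and Wnt antagonist of the follicle (13.64). Prlr and Irx2 had 0 UMIs in Krt8 Krt18 cells and were at least 3119-fold and 3435-fold higher at a floor of 3 UMIs over the group. The largest falls by the same rule were Inmt (-2.71), Sox2 (-2.35), and S100g (-2.23), followed by Rdh10, Nr2f2, Cda, Plekhf1, Cldn2, Enpp2, and Nceh1 (-2.14 to -1.89). Inmt, a methyltransferase, was 0 to 9.63 CPM in keratinocytes and 18.5 to 46.5 CPM in Krt8 Krt18 cells. Sox2, a stem cell factor, was 0 to 8.80 CPM and 15.6 to 29.4 CPM in the same order. Both were picked as the largest falls over these libraries, so the gap between their ranges is a description only.

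The T cell list summed to 39.4 CPM in all members (8.80 to 55.5 CPM over the 5 libraries), against 4.51 CPM in Krt8 Krt18 cells and 779 CPM in barcodes with Ptprc. Of its genes 1 of 5 was higher than in Krt8 Krt18 cells (Trbc2, 5.04), against 8.53% of all genes. The myeloid list summed to 229 CPM (17.6 to 289 CPM), against 55.4 and 8182 CPM. Of its genes 2 of 7 were higher, S100a8 (1.59) and S100a9 (1.19). Without the Percoll library of the PancVAX + Anti-PD-1 pool they were 1.44 (adjusted P = 0.143) and 0.52 (adjusted P = 0.554). The part of such cells in the other results was not tested. All 6 fibroblast markers were lower than in Krt8 Krt18 cells, among them Col1a1 (-2.63) and Dcn (-1.87). Cd207, the marker of epidermal Langerhans cells, and the endothelial Cdh5, Kdr, and Emcn were at 0 UMIs in all members, and the melanocyte list had 1 UMI each of 3 genes. The B cell, skeletal muscle, and red cell lists each summed to under 4 CPM. Of the Langerhans cell list, Mfge8 was lower (-1.10).

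Finally, members with Krt1 and Krt10 were compared with those without. Only the PancVAX + Anti-PD-1 pool (88 and 92 members) and the PancVAX + Anti-CTLA-4 pool (9 and 10) had at least 5 members of each kind, which left 1 residual degree of freedom with the pool as a block. Over all 107 and 112 such members, median depths were 7373 and 7570 UMIs. The tested sums were less even, at 1249822 and 779442 UMIs in the PancVAX + Anti-PD-1 pool. They were 227753 and 131803 UMIs in the PancVAX + Anti-CTLA-4 pool. Members with Krt1 and Krt10 were thus deeper in sum, and deep members weigh most in such sums. Of 6220 genes tested, 88 (1.41%) were higher and 43 (0.691%) lower in members with 3 or more UMIs of Krt1 and Krt10 (2.11% in either direction). With matching barcodes counted once these counts were 43 and 36 of 4461 genes tested (0.964% and 0.807%). Without the Percoll library of the PancVAX + Anti-PD-1 pool they were 88 and 86 of 3169 (2.78% and 2.71%). Without members that held markers of other cells they fell to 3 and 2 of 2882. With sums by library they fell to 10 and 0 of 2037 (266 genes at an unadjusted P under 0.05). Of 34 called genes that were followed over the alternatives, 11 kept their call in every alternative in which they were tested.

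The suprabasal list was higher for 5 of 8 tested, against 1.41% of all genes, with a median of 1.69 against -0.01 over all genes. Calm4 (3.82 ± 0.63), Krtdap (3.49 ± 0.38), Sbsn (2.09 ± 0.21), Dmkn (1.75 ± 0.23), and Lgals7 (1.64 ± 0.21) rose. Krtdap went from 649 to 4431 CPM and passed with matching barcodes counted once (3.63) and without the Percoll library (3.14). Calm4 did not pass with matching barcodes counted once (3.67, adjusted P = 0.0612) and passed without that library (3.17). Over all alternatives Calm4 lost its call in 4 of 9, Krtdap, Sbsn, and Lgals7 in 3 of 9, and Dmkn in 2 of 9. Without members that held markers of other cells Krtdap was 2.25, Dmkn 1.17, Sbsn 0.98, and Lgals7 0.92, and none of these 4 passed. Desmosome genes were higher for 4 of 10, Jup (1.64), Perp (1.55), Pkp1 (1.47), and Dsp (1.09), of which only Perp passed with matching barcodes counted once. Over all alternatives Perp lost its call in 4 of 9, Jup in 5, and Pkp1 and Dsp in 6. With matching barcodes counted once Jup was 1.57 (adjusted P = 0.0511), Pkp1 1.18, and Dsp 0.81, and without the Percoll library Jup passed (1.55) while Pkp1 (1.06) and Dsp (0.77) did not. The largest rises, again among genes with at least 20 CPM, were Krt77, a suprabasal keratin, at 2143 against 1.10 CPM (10.70 ± 0.80), then Mt4, a metallothionein of stratified epithelia (7.61 ± 0.46), Gm94 (7.35), Ankrd35 (5.66), Ly6g6c (5.11), and the ceramidase Acer1 (5.08). Ly6g6e, the histidine ammonia-lyase Hal, and the kallikreins Klk5 and Klk11 had 0 UMIs in members without Krt1 and Krt10 and were at least 22.0-, 19.9-, 18.3-, and 16.4-fold higher.

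Of the 11 hemidesmosome and basement membrane genes 0 passed by edgeR, and of the 11 regulators and receptors only Sfn did (1.57 ± 0.22), where 2.11% of all genes passed. At such a share 0 of 11 says little, and small changes of these genes may have been missed. Sfn lost its call in 3 of 9 alternatives. Col17a1 was 672 and 588 CPM, Krt15 was 2284 and 2652 CPM, and Trp63 was 195 and 164 CPM in members with and without Krt1 and Krt10. By edgeR Krt15 was at log2 0.29 (adjusted P = 0.695). It passed only without the Percoll library of the PancVAX + Anti-PD-1 pool (log2 1.19), and its sign turned to negative in other recounts. Timp3, an inhibitor of metalloproteinases, was 1.35 CPM in members with Krt1 and Krt10 and 137 CPM in those without (log2 -6.37 ± 0.50), and other large falls were Heg1 (-5.28), the connexin Gjb2 (-4.45), Hmcn1 (-4.34), Cxcl12 (-3.81), the bulge markers Cd34 (-3.79) and Lhx2 (-3.66), Igfbp4 (-3.79), and Cxcl5 (-3.46). Lhx2 (adjusted P = 0.0495) lost its call in 1 of the 3 alternatives that gave it an adjusted P, and Cxcl12 in 1 of 5. Timp3, Heg1, Gjb2, Hmcn1, and Igfbp4 passed in both recounts, with matching barcodes counted once and without the Percoll library. Krt16 (-1.93 ± 0.27), Krt8 (-1.38), and Cxcl10 (-3.18) were lower in members with Krt1 and Krt10, but did not pass with matching barcodes counted once (-1.38, -1.45, and -2.90). Without the Percoll library Krt8 passed (-2.34, adjusted P = 0.00281) and Krt16 did not (-0.65, adjusted P = 0.553). S100a9 (-2.77), a neutrophil gene also made by keratinocytes under stress, was lower as well.

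**Figure D5:**
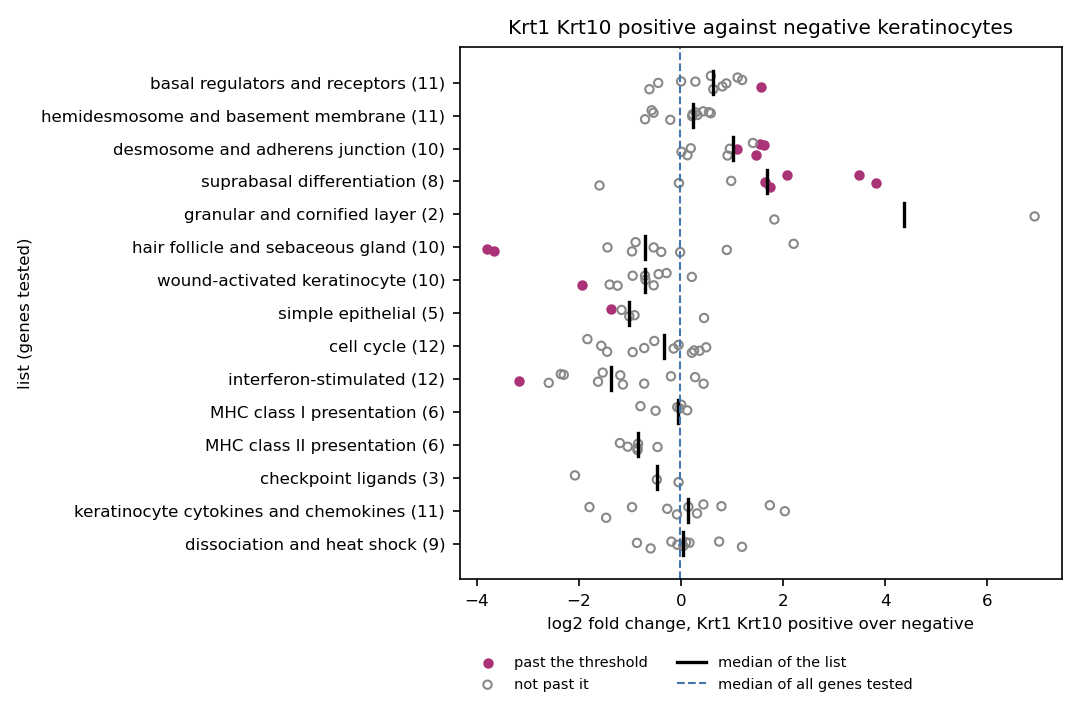
Log2 fold change of members with Krt1 and Krt10 over members without them (x axis) for the genes of each list (y axis, number tested in brackets). Filled points passed the threshold, open points did not, black bars give list medians, and the dashed line gives the median of all genes, -0.01. The suprabasal list lies to the right at a median of 1.69, and the hemidesmosome list stays near 0.

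The states of single members were then counted at equal depth, after each member was thinned to 1000 UMIs. Krt1 or Krt10 was found in 38.5% of 39 members in the whole-tumor library of the PancVAX + Anti-PD-1 pool (exact binomial 95% interval 23.4% to 55.4%) and in 40.9% of 171 in its Percoll library (33.5% to 48.7%), or in 35.2% of 71 with matching barcodes counted once. It was found in 25.0% of 24 members of the PancVAX + Anti-CTLA-4 pool (9.77% to 46.7%) and in 6.67% of 15 of the pool with all 3 agents (0.169% to 31.9%). Unthinned shares were 56.4%, 56.1%, 59.2%, 58.3%, and 53.3% in that order. Mki67 or Top2a, which mark dividing cells, were found in 17.9%, 22.8%, 28.2%, 8.33%, and 0% of the same members after thinning, and in 35.9%, 56.7%, 54.9%, 29.2%, and 26.7% before. Of 93 members with 2 or more UMIs of both genes together, 36 also had 3 or more UMIs of Krt1 and Krt10 and 46 had none. No shares were compared by a test, since each library is 1 sample. The intervals cover counting error only and treat barcodes as independent, matching ones included.

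The groups of matching barcodes differed among themselves. In the largest, 19 members had 12 to 30 UMIs of Krt1 and Krt10, 16 of them held Krt8 and Krt18, and Krt5 came to 3.05 to 13.9 UMIs per 10000. In the second, 14 members had 0 or 1 UMI of Krt1 and Krt10, all held Krt8 and Krt18, and Krt5 came to 5.70 to 13.3. In the third, 13 members had 79 to 181 UMIs of Krt1 and Krt10, none held Krt8 and Krt18, and Krt5 came to 56.8 to 85.1. The largest 5 groups together held 65 members. Among the 158 members with matching barcodes counted once, 34 held Krt8 and Krt18 in place of 82, and 50 in place of 93 held 2 or more UMIs of Mki67 and Top2a.

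Effects of the agents on genes within the keratinocytes were not tested. The test needed at least 2 pools with and 2 without each agent, and of the 3 pools with at least 10 members all received PancVAX, 1 lacked Anti-PD-1, and 1 lacked Anti-CTLA-4. The levels by library above are given as values only.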

How the data were processed

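Reads of 10x Genomics 5′ libraries were aligned and counted by the authors with Cell Ranger 4.0.0 on mm10, and 1 matrix of raw UMI counts for 144994 barcodes and 32285 genes was deposited. The 16 libraries were mapped to 8 treatments and 2 preparations by their labels. T cell receptor contigs, deposited with UMI counts, were used only for their barcodes in Percoll libraries. The members, gene lists, and tests were chosen with earlier results of these data known.

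Counts were analysed as deposited, in Python 3.11.15 and R 4.3.3. Shares were compared by exact two-sided permutation tests, with Benjamini-Hochberg adjustment over 3 agents. UMI sums were tested with the quasi-likelihood test of edgeR 4.0.16 (TMM scaling, filterByExpr, Benjamini-Hochberg adjustment over all genes tested, adjusted P under 0.05 and absolute log2 fold change above 1), and DESeq2 1.42.0 was an alternative. Genes that chose the cells were not tested. Barcodes with at least 3000 UMIs were searched. They were called matching when counts of at least 30 genes, each with at least 3 expected UMIs, gave a chi-square per gene under 1.25. Scripts were tested on simulated data. At an adjusted P under 0.05, genes changed 2-fold were recovered in 34.3% against Krt8 Krt18 cells and in 15.6% in the Krt1 and Krt10 comparison. Genes changed 4-fold were recovered in 79% and 73.3%. Named genes were Krt5, Krt14, Trp63, and Ptprc, list genes that passed or had the highest CPM, and the 10 largest rises and falls with at least 20 CPM. A few further list genes were named after their values were seen. Library and pool were blocks, since both groups of cells came from the same library or pool. A test of the agents across genes was planned for at least 2 pools with and 2 without each agent, and was not run, since too few pools had 10 members. Some genes that these rules name are not reported here.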

Additional observations from a re-analysis of the deposited data

Results flagged for a closer look

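The share of keratinocytes in the PancVAX + Anti-PD-1 pool stood far from the other pools by Dixon's test in 7 of the 10 groups of shares tested. These were all the groups that held this pool. Chance flags about 1 group in 20 only where values are normal, which shares with several values of 0 are not. None of the other 19 groups tested, which held summed levels of gene lists, had a library that stood apart. It was 0.567% among the 8 whole-tumor libraries and 1.61% among the 8 Percoll libraries. The mean of both libraries, 1.09%, stood apart among all 8 pools, among the 4 pools with PancVAX, among the 4 with Anti-PD-1, and among the 4 without Anti-CTLA-4. The difference of whole tumor minus Percoll was -1.04 points in this pool, far from those of the other pools. With matching barcodes counted once, a recount chosen after seeing the data, it was -0.351 points against -0.125 to 0.0574 in the other pools, and still stood apart. These groups share the same 2 libraries and are not independent. Matching barcodes are part of the Percoll value, which was 0.930% with them counted once, and no member of the whole-tumor library had a matching barcode. Why this pool stood apart was not tested.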

How the results depend on the processing

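Of 74 alternative values of the share comparisons, 71 kept their direction and side of the threshold. Leaving out each pool in turn gave PancVAX differences of 0.0634 to 0.426 points, Anti-PD-1 differences of -0.00403 to 0.358, Anti-CTLA-4 differences of -0.327 to 0.0350, and preparation differences of -0.182 to -0.0249.

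Against Krt8 Krt18 cells, higher genes numbered 1991 of 23102 tested (8.62%) with no filter on low counts. They numbered 545 of 9505 (5.73%) under the limits of the study. Lower genes numbered 177 (1.86%) under those limits and 1367 (12.3%) without members and Krt8 Krt18 cells with other markers. They numbered 2119 (16.1%) without members with Krt8 and Krt18, and 1176 (9.16%) with matching barcodes counted once. These recounts also changed which libraries had at least 10 members, with 2 left under the limits of the study, 3 in both recounts without some members, and 4 with matching barcodes counted once. Except in the recount without members with Krt8 and Krt18, the Krt8 Krt18 cells changed as well. In the Percoll library of the PancVAX + Anti-PD-1 pool they fell from 3563 to 1444 under the limits, 834 without other markers, and 2194 with matching barcodes counted once. Leaving out each pool gave 661 to 1220 higher and 261 to 818 lower genes, both lowest without the PancVAX + Anti-PD-1 pool. Of 1190 values of 101 named genes, 1093 kept their call and 1 turned sign, Atf3 at -0.054 under the limits of the study.

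Between members with and without Krt1 and Krt10, higher and lower genes numbered 153 and 110 of 6220 tested with RLE scaling. With no filter they numbered 286 and 208 of 15265 (1.87% and 1.36%). Without members with other markers they were 3 and 2 of 2882, and without members with Krt8 and Krt18 46 and 68 of 3703. With sums by library they were 10 and 0 of 2037 (266 at an unadjusted P under 0.05). With matching barcodes counted once 43 of 4461 were higher, and without the Percoll PancVAX + Anti-PD-1 library 86 of 3169 were lower. Of 283 values of 39 named genes, 209 kept their call, where values to which DESeq2 gave no adjusted P were left out. Col17a1 turned to -0.24 and Krt15 to -0.38 without members with Krt8 and Krt18, and Krt15 to -0.11 with sums by library. The causes were not tested.

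Without the block that pairs cells by library, 1195 genes were higher and 790 lower against Krt8 Krt18 cells. These held 1075 of the 1096 higher and 619 of the 726 lower genes called with it. Between members with and without Krt1 and Krt10, 59 genes were higher and 18 lower without the block by pool. Recounts with matching barcodes, without members with Krt8 and Krt18, by library, and without the Percoll library were chosen after seeing the data. Leaving out a pool or applying the limits of the study left 1 pool for the Krt1 and Krt10 comparison, which was then not tested, and alternatives of the test of agents were not run.

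Few members limit all of these results: 3 pools had 10 or more, and the Krt1 and Krt10 comparison had 1 residual degree of freedom. Sums in the whole-tumor PancVAX + Anti-CTLA-4 library rest on 10 cells. Those in the Percoll library with all 3 agents rest on 11, of which members with 75406 and 78977 UMIs held most of the 274566 UMIs.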
